A study of Homo sapiens with 3 samples.

Results

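The LIM homeobox genes examined here are LHX1, LHX2, LHX3, LHX4, LHX5, LHX6, LHX8, LHX9, LMX1A and LMX1B, 10 of the 62754 genes in each deposited table, taken by symbol from gene identifiers. They were followed through 1 group of 3 RNA-seq libraries of wild-type pNPCs (primitive neural progenitors, which renew themselves at an early neural stage) made from H1, an established human embryonic stem cell line. The cells had been kept with FGF2 (20 ng/ml), the GSK3 inhibitor CHIR99021 (3 µM), human LIF (10 ng/ml), the TGF-beta receptor inhibitor SB431542 (2 µM) and the ROCK inhibitor Y-27632 (10 µM), with N2 and B27-RA supplements, so every library carries the same agents. There is no untreated or mutant group, and nothing in the labels ties the 3 replicates to separate cultures, so a p-value here covers the spread between these libraries alone, and that spread may be technical.

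LIM homeodomain proteins carry a pair of zinc-binding LIM domains ahead of a DNA-binding homeodomain. The LIM domains bind the cofactor LDB1, which dimerises and joins several factors into one complex that SSBP proteins stabilise, while LIM-only (LMO) proteins compete for the same cofactor. In the nervous system these factors specify regions and neuron classes, and most of the family falls into pairs of close relatives, among them LHX1 and LHX5, LHX2 and LHX9, LHX3 and LHX4, LHX6 and LHX8, LMX1A and LMX1B, and ISL1 and ISL2. LMX1B is known for its part in maintaining the isthmus, the signalling centre between midbrain and hindbrain, and in serotonergic neurons, kidney podocytes and the dorsal limb. LMX1A is known from the roof plate and the dopaminergic ventral midbrain, LHX6 and LHX8 from the medial ganglionic eminence and the jaw mesenchyme of cranial neural crest, and LHX2 from the telencephalon and eye field.

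The libraries held 34658454, 38400092 and 30038114 expected counts (RSEM's estimated reads per gene) in replicates 1, 2 and 3. Replicate 1 stood apart from the others: RSEM shortened transcripts by 216 bases to reach their effective length there, against 253 and 259 bases in replicates 2 and 3, a correction that RSEM takes from the estimated fragment length. Among 10 neural progenitor genes 8 were detected. The highest were VIM at 1912 ± 194, NES at 181 ± 21.1, FABP7 at 103 ± 31.3 and MSI1 at 78.7 ± 11.4 TPM (mean ± SD, n = 3). PAX6 stayed at 0.13, 0.81 and 0.38 TPM, and HES5 stood at 6.76, 0.72 and 5.66 TPM. All 10 mesenchyme and fibroblast genes were detected as well, none of them at 0. TPM, a share of all transcripts in a library, corrects a gene's reads for its length and for the size of the library, and detected means 1 TPM or more in every library.

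Of the 10 members 4 were detected, LMX1B, LHX8, LHX2 and LHX6, against 62.2% of protein-coding genes and 23.0% of all genes. LMX1B and LHX8 were the most abundant, at 17.9 ± 8.89 and 17.4 ± 9.54 TPM (mean ± SD, n = 3), followed by LHX2 at 5.81 ± 3.33 and LHX6 at 3.30 ± 1.89 TPM. LHX4, a factor of pituitary and motor neuron development, lay at the limit with 0.73 ± 0.37 TPM, and LMX1A lay below it with 0.38 ± 0.16 TPM. LHX1, LHX3, LHX5 and LHX9 had at most 6 counts each over the 3 libraries together. With ISL1 and ISL2 added, the 12 LIM homeodomain genes summed to 23.1, 59.3 and 55.4 TPM in replicates 1, 2 and 3, and LHX8 with LMX1B made up 81.1%, 79.8% and 72.2% of these sums. Fewer cells of a type and less RNA per cell cannot be told apart in such bulk samples.

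**Figure D1:**
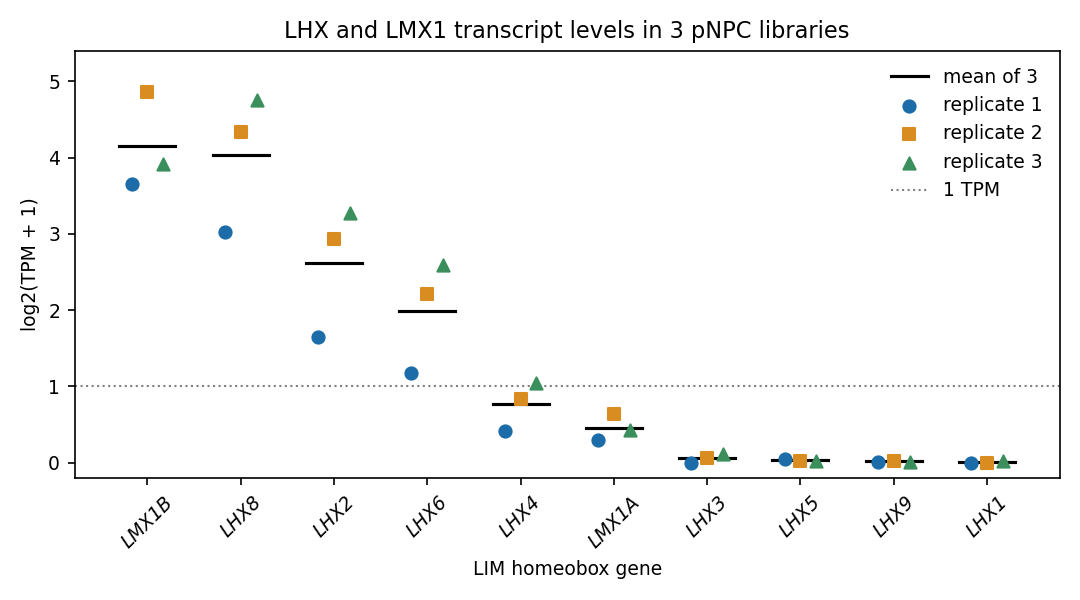
Levels of the 10 genes on the log2(TPM + 1) scale (vertical axis) by gene (horizontal axis), with 1 marker for each of the 3 libraries, a bar for their mean and a dotted line at 1 TPM. LMX1B, LHX8, LHX2 and LHX6 lie above the line in all 3 libraries, LHX4 reaches it only in replicate 3, and replicate 1 is the lowest point for each of these 5 genes and for LMX1A.

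LMX1B (ENSG00000136944.19, chromosome 9, 126613928 to 126701032, GRCh38) and LMX1A (ENSG00000162761.14, chromosome 1, 165201867 to 165356715) are close relatives, and their levels were far apart. The 250 bases before the start site of each are shown, so that relatives of such unequal RNA level can be compared. Those of LHX8 and LHX2, the other pair set side by side, are shown as well. These windows come from RefSeq (GRCh38.p14), run 5′ to 3′ in the direction of transcription and end at the base before the 5′-most start site. Each CG dinucleotide, the substrate of CpG methylation, is in capitals.
LMX1B, chr9:126613678-126613927, plus strand: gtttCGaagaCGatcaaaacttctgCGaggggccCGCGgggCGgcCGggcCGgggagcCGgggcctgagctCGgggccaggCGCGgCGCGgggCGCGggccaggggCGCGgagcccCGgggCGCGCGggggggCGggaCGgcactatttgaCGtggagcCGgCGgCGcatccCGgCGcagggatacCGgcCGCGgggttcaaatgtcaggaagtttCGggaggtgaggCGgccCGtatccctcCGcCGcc
LMX1A, chr1:165356716-165356965, minus strand: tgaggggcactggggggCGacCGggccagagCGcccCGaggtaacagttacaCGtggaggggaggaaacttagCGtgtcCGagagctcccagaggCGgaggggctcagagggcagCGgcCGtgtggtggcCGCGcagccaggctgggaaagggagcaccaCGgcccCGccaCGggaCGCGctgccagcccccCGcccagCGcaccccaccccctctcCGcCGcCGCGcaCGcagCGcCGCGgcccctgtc
LHX8, chr1:75128184-75128433, plus strand: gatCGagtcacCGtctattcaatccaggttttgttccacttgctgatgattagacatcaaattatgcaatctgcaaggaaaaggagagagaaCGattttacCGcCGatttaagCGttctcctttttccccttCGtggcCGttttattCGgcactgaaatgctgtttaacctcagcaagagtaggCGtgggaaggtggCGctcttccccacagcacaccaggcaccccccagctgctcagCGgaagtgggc
LHX2, chr9:124011518-124011767, plus strand: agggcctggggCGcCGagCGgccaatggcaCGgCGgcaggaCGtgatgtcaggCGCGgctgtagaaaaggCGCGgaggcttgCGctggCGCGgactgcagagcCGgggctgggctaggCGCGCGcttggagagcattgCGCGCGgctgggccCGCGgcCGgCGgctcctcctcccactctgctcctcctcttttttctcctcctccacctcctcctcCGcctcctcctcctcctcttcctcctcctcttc
The LMX1B window held 38 CG dinucleotides, more than 96.7% of the 35114 windows of this length in the RefSeq table, whose median was 11. The LMX1A window held 27 (percentile 82.3), the LHX2 window 25 (78.4) and the LHX8 window 12 (51.5). GC content was 76.4% before LMX1B, 75.2% before LMX1A, 70.4% before LHX2 and 50.4% before LHX8. LHX8, with the fewest CG dinucleotides of these 4, had a mean level close to that of LMX1B. LMX1A, at under 1 TPM, had more of them than LHX2. A link between CG content and level was not tested. RefSeq gives 2 windows each for LHX8 and LMX1A, of which only the 5′-most was counted, and the start used in these cells was not determined. Searched on both strands, the motif TATAAA (in 10.7% of all windows) and the homeodomain motif TAATTA (4.35%) were in none of the 4 windows, CCAAT (32%) occurred 1 time before LHX2 and in none of the others, and GGGCGG (42.6%) occurred 2 times before LMX1B, 1 time before LMX1A and not before LHX8 or LHX2. GGGCGG contains a CG itself, so its count is not independent of the CG count. RefSeq windows were found for 8 of the 10 members. LHX1 and LHX5 had none.

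LMX1B stood at 11.61, 28.11 and 14.12 TPM in replicates 1, 2 and 3, from 1793, 4418 and 1726 expected counts. Replicate 2 was thus the high library, and replicates 1 and 3 lay close together. LMX1A stood at 0.23, 0.55 and 0.35 TPM, from 13, 40 and 22 counts. Its exact Poisson 95% intervals were 0.125 to 0.401, 0.391 to 0.746 and 0.220 to 0.532 TPM, so no library reached 1 TPM within counting error, the only error that intervals in this text cover. The ratio of LMX1B to LMX1A in TPM was 50.5, 51.1 and 40.3, and LMX1B was higher in 3 of 3 libraries. As a difference of log2(TPM + 1), which is too small where a gene is near 0, LMX1B exceeded LMX1A by 3.36, 4.23 and 3.49, on average by 3.69 ± 0.47 (SD, n = 3). The exact two-sided sign-flip permutation test gave p = 0.25, the smallest that 3 libraries allow (adjusted 0.292 by Benjamini-Hochberg over 7 gene pairs), so no pair here could pass a threshold of 0.05. Both genes were highest in replicate 2 and lowest in replicate 1, though the LMX1A intervals overlapped between all libraries.

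LHX8 (ENSG00000162624.16, chromosome 1, 75128434 to 75199454), known for cholinergic neurons of the basal forebrain and for the palate, stood at 7.10, 19.23 and 25.91 TPM, from 336, 909 and 947.64 expected counts. LHX2 (ENSG00000106689.11, chromosome 9, 124011768 to 124033301) stood at 2.14, 6.65 and 8.65 TPM, from 85, 286 and 284 counts. Both genes were low in replicate 1 and highest in replicate 3. LHX8 stood above LHX2 by a nearly fixed factor, with TPM ratios of 3.32, 2.89 and 3.00 (3.07 ± 0.223), although LHX8 itself varied 3.65-fold and LHX2 4.04-fold between libraries. Their difference was 1.37, 1.40 and 1.48 on the log2(TPM + 1) scale, or 1.42 ± 0.06 (exact two-sided sign-flip permutation p = 0.25, adjusted 0.292, n = 3). This was the smallest SD relative to its mean of the 7 pairs, but on that scale only. As TPM ratios, LHX8 to LHX6 (5.37 ± 0.233) and LHX6 to LHX2 (0.571 ± 0.0223) varied less relative to their means, so the steadiness was not particular to LHX8 and LHX2.

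LHX6 (ENSG00000106852.16, chromosome 9, 122202582 to 122228957), the close relative of LHX8, stood at 1.26, 3.63 and 5.0 TPM, from 96, 270 and 297 counts. It followed the same order of libraries as LHX8 and LHX2, and the LHX8 to LHX6 ratio was 5.63, 5.30 and 5.18. The difference was 2.04 ± 0.18 log2 units, positive in 3 of 3 libraries, and was 1.57 when CPM, counts scaled to a common library total but not for length, replaced TPM. The order LHX8, LHX2, LHX6 held in every library. LMX1B and LHX8 did not keep one order: LMX1B was the higher by 1.64-fold and 1.46-fold in replicates 1 and 2, and LHX8 by 1.83-fold in replicate 3, so their means did not differ beyond the spread between libraries. By counts, which long transcripts raise, LMX1B alone took 74.9%, 73.1% and 50.5% of the reads of the 12 genes, against 14.0%, 15.0% and 27.8% for LHX8.

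**Figure D2:**
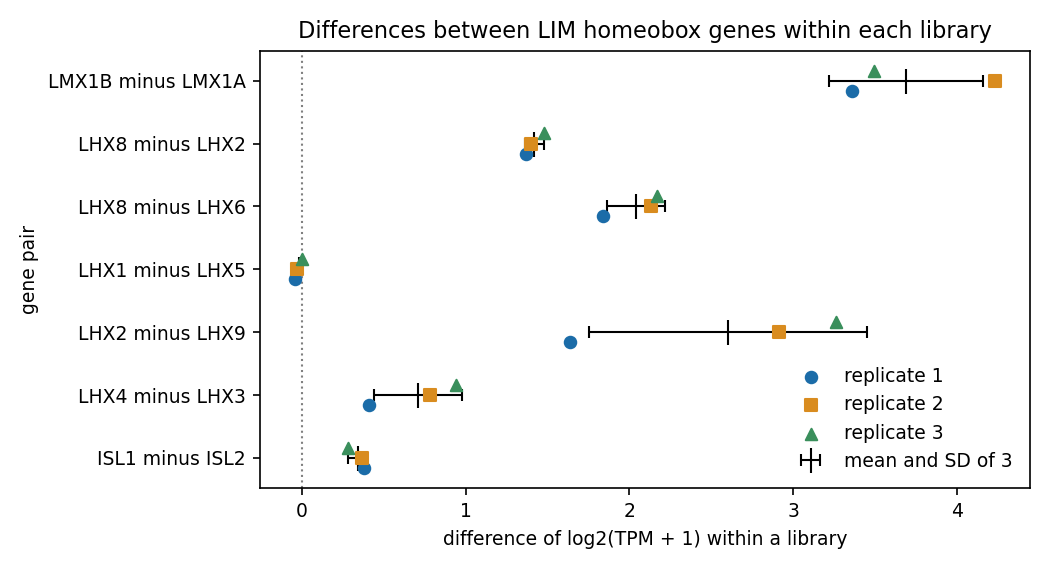
Difference of log2(TPM + 1) within a library (horizontal axis) for 7 gene pairs (vertical axis), with 1 marker per library and the mean with its SD in black. LHX8 minus LHX2 spans only 1.37 to 1.48 while LMX1B minus LMX1A lies between 3.36 and 4.23, and LHX1 minus LHX5 sits at or just under 0.

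The remaining members were low. LHX4 (ENSG00000121454.6, chromosome 1, 180228375 to 180278984) had 0.33, 0.78 and 1.07 TPM, from 47.24, 103.01 and 120.81 expected counts. The fractions show that RSEM shared some of its reads with other genes. LHX4 thus reached 1 TPM only in replicate 3, where the exact Poisson 95% interval was 0.887 to 1.28 TPM. Its relative LHX3 (ENSG00000107187.17, chromosome 9, 136196250 to 136205128), needed with LHX4 for pituitary and motor neuron development, had 0, 2 and 4 counts, and LHX4 exceeded it by 0.71 ± 0.27 log2 units (2.49 with a pseudocount of 0.1). LHX9 (ENSG00000143355.16, chromosome 1, 197912464 to 197935478), the relative of LHX2, had 1, 2 and 2 counts, and LHX2 exceeded it by 2.60 ± 0.85 log2 units (5.49 with a pseudocount of 0.1).

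LHX1 (ENSG00000273706.5, chromosome 17, 36936785 to 36944612) and LHX5 (ENSG00000089116.4, chromosome 12, 113462033 to 113471871), which act in interneurons, Purkinje cells and, for LHX1, the kidney, were both near 0. LHX1 had 0 counts in replicates 1 and 2, where a floor of 3 counts would be 0.0974 and 0.0981 TPM, and 1 count in replicate 3. LHX5 had 2, 1 and 1 counts. Their difference was -0.02 ± 0.02 log2 units (exact two-sided sign-flip permutation p = 0.50, adjusted 0.50, n = 3), and no difference was detectable at this depth. ISL1, a factor of motor and sensory neurons outside the set of 10, had 0.34, 0.29 and 0.21 TPM, and its relative ISL2 had 1, 0 and 0 counts. The exact Poisson 95% intervals of LHX1, LHX3, LHX5 and LHX9 overlapped in every library, so these 4 genes have no order among themselves.

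Whether a gene differed between replicates more than genes of like abundance was tested with an intercept-only edgeR fit over 17046 genes, at an adjusted p under 0.05. The filter on low counts passed 6 of the 10 members, LHX2, LHX4, LHX6, LHX8, LMX1A and LMX1B. The test called 1 of these 6, LHX8, against 1.59% of all genes tested. LHX8 had 9.78, 23.8 and 31.2 CPM (scaled by edgeR's TMM factors), a 3.18-fold range, with replicate 1 at -1.47 log2 CPM relative to the average of the others (edgeR, Benjamini-Hochberg adjusted p = 0.0353). This call was narrow: the adjusted p was 0.0598 with no filter, 0.0832 with a common dispersion, 0.148 without replicate 2, 0.43 without replicate 3 and 1.00 without replicate 1.

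LHX2 at 2.48, 7.49 and 9.35 CPM had the widest range of the 6, 3.72-fold, with replicate 1 at -1.73 log2 CPM relative to the others, yet it did not pass (edgeR, adjusted p = 0.179, with a range from 0.0319 under a common dispersion to 1.00 over the alternatives). LHX6 showed a 3.45-fold range (adjusted p = 0.27) and LHX4 a 2.83-fold range (adjusted p = 0.90). LMX1A had a 2.53-fold range on few counts (adjusted p = 1.00). LMX1B had a 2.22-fold range and did not pass (adjusted p = 0.0942), but between replicates 2 and 3 alone, without replicate 1, it was called at an adjusted p of 8.47e-05, with replicate 2 higher by 1.02 log2 CPM. The fit without replicate 1 called 117 genes in all, and none of LHX2, LHX4, LHX6, LHX8 and LMX1A, each with an adjusted p of 1.00 there. Over the alternatives the adjusted p of LMX1B ranged from 8.47e-05 to 1.00, the latter without replicate 2.

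All 6 tested members had their lowest CPM in replicate 1, as did 41.1% of all genes tested and 41.3% of the protein-coding ones. Their median deviation there was -1.35 log2 CPM, and the median range over the 3 libraries was 1.58 log2 units, against -0.01 and 0.42 over all genes tested. The latter medians cover genes of every abundance, and low counts widen a range. The spread test above, which allows for abundance, called only LHX8 of the 6 after adjustment. Before adjustment LHX2, LHX6, LHX8 and LMX1B, 4 of the 6, had an edgeR p under 0.05. Among all 17046 genes tested 1253 did. TPM scaling lowers replicate 1 as a whole, with a median of -0.15 log2 units over detected protein-coding genes against 0 in CPM, and LHX8 lay at -1.65 in TPM and -1.50 in unadjusted CPM. LMX1A differed more between the scales, with -0.93 in TPM and -1.22 in CPM. LMX1B differed from the LHX genes in which library was high. It was 1.09 log2 CPM above the others in replicate 2 and at -0.45 in replicate 3, whereas LHX2, LHX6, LHX8 and LHX4 were 1.11, 1.13, 1.03 and 1.03 above the others in replicate 3.

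**Figure D3:**
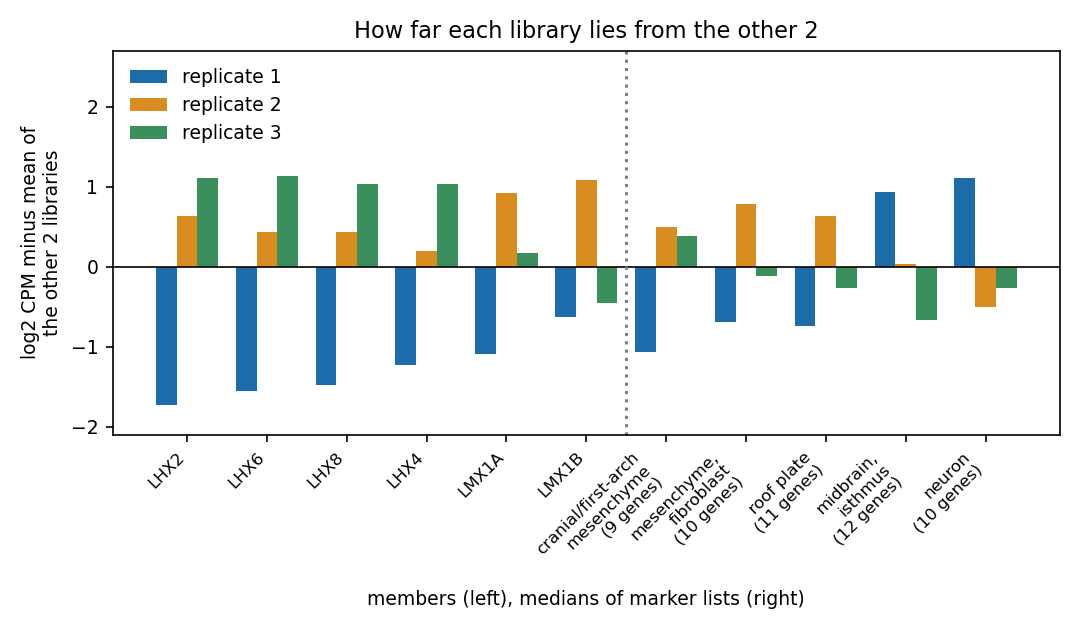
Log2 CPM in each library minus the mean of the other 2 libraries (vertical axis) for the 6 members that passed the filter (left of the dotted line) and as medians of marker lists (right). In replicate 1 all 6 members, the mesenchyme lists and the roof plate list lie below 0, while the isthmus list at 0.94 and the neuron list at 1.11 lie above it. The neural progenitor list is not drawn and had a median of 1.01 in replicate 1.

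Gene lists for the territories in which these factors are known to act were set beside the members. All protein-coding genes had a median of 2.86 ± 0.18 log2(TPM + 1), and 62.2% of them were detected. Genes of the cranial and first-arch mesenchyme, the territory of LHX6 and LHX8, included 8 detected of 15, and the median over the list was 2.32 ± 0.44. PRRX1, a mesenchymal homeobox gene, stood at 86.19, 294.10 and 238.67 TPM, TWIST1 at 141.70, 238.89 and 187.16 TPM, MSX1 at 74.10, 199.68 and 158.65 TPM, and DLX1 at 16.12, 39.61 and 43.90 TPM. All of the 8 detected genes had their lowest TPM in replicate 1, as did 57.3% of detected protein-coding genes. DLX6 had 0 counts, and HAND2, a gene of the ventral part of the arch, had 0.04 TPM in replicate 3 and 0 in the others.

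The wider mesenchyme and fibroblast list, detected in 10 of 10 cases, summed to 573, 1232 and 863 TPM in replicates 1, 2 and 3. In replicate 1 8 of its 10 genes were lowest, against 57.3% of detected protein-coding genes. Its median member lay at -0.70 log2 CPM from the other libraries in replicate 1, on the side of LHX8, LHX6 and LHX2. Neuron markers, 10 of 10 detected, summed to 1169, 733 and 661 TPM. Of these 10 genes 7 were highest in replicate 1, against 25.0% of detected protein-coding genes. The 1 lowest there was MAP2 at 31.33, 40.85 and 47.71 TPM. Most of the neuron sum came from NEFM at 485.18, 240.96 and 175.79 TPM and TUBB3 at 478.32, 323.76 and 323.36 TPM. MAP2 was picked with its values already known. The neural progenitor list also lay above the other libraries in replicate 1, by a median of 1.01 log2 CPM over 9 genes tested. Of its 8 detected genes 5 were highest there and 1 was lowest. The part of any of these cell types in the levels of the LIM genes was not tested. The medial ganglionic eminence and cholinergic list, the other known territory of LHX6 and LHX8, had 2 of 12 genes detected and its median was 0.10 ± 0.08. SOX6 stood at 7.54 ± 2.86 TPM, the GABA synthesis genes GAD1 at 0.35 ± 0.32 and GAD2 at 0.33 ± 0.19 TPM, and GSX2 had 0 counts.

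The midbrain and isthmus list, the territory of LMX1B, was detected in 11 of 13 cases, with a median of 4.78 ± 0.64. PAX8 reached 127.20, 107.64 and 83.56 TPM, the engrailed gene EN2 100.07, 76.84 and 57.01 TPM, the FGF feedback inhibitor SPRY1 87.14, 85.73 and 60.00 TPM, and the ligand gene FGF18 91.43, 68.52 and 33.15 TPM. WNT1, a ligand of the isthmus whose expression depends on Lmx1b in mouse, stood at 0.02, 0.23 and 0.32 TPM beside abundant LMX1B. OTX2, the midbrain-side factor of the boundary, was at 0.83, 1.68 and 1.49 TPM. Of the 11 detected genes 9 were highest in replicate 1, the library in which LMX1B was lowest, and 0 were lowest there, against 25.0% of detected protein-coding genes that were highest and 57.3% that were lowest in it. The list summed to 656, 504 and 341 TPM in replicates 1, 2 and 3, while LMX1B was highest in replicate 2.

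Roof plate genes, the territory of LMX1A, were detected in 7 of 12 cases, with a median of 3.85 ± 0.68, while LMX1A itself was not detected. ZIC2 stood at 118 ± 19.7, ZIC1 at 99.0 ± 24.8 and the ligand gene BMP4 at 52.2 ± 28.3 TPM. BMP4 had its highest level in replicate 2 (28.80, 83.63 and 44.19 TPM), the same library as LMX1A and LMX1B. ZIC2 was the 1 of the 7 detected genes that was highest in replicate 1 (140.17, 103.56 and 109.34 TPM). The share of all genes that were highest in replicate 2 was not counted, and a link to LMX1A or LMX1B was not tested. RSPO3 had 0.19 ± 0.05 TPM. Of the midbrain floor and dopaminergic list 2 of 12 genes were detected, with a median of 0.13 ± 0.05, and the floor plate gene FOXA2 had 0 counts. Its highest genes were DDC, the decarboxylase of dopamine and serotonin synthesis, at 9.84, 3.22 and 6.29 TPM, tyrosine hydroxylase (TH) at 6.50, 0.59 and 2.79 TPM, and the nuclear receptor gene NR4A2 at 1.60, 1.00 and 1.39 TPM. The dopamine transporter gene SLC6A3 was at 0.02 ± 0.01 TPM. TH was highest in replicate 1 and differed between libraries (edgeR, adjusted p = 0.00239). LMX1A was lowest there, but its intervals overlapped between all libraries, so its order cannot be set against that of TH.

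Serotonergic genes, which LMX1B regulates in the hindbrain, were detected in 1 of 6 cases, the erythroid and neural factor GATA2 at 2.26 ± 1.05 TPM, with the serotonin synthesis enzyme gene TPH2 at 0.01 ± 0.01 TPM and NKX2-2 at 0 counts. In the telencephalon and eye field list of LHX2 2 of 10 genes were detected, HESX1 at 4.99 ± 1.05 and EMX2 at 3.91 ± 0.47 TPM, with SIX6 at 0.07 ± 0.08 TPM, beside LHX2 at 5.81 TPM. The list for LHX1 and LHX5 neurons had 2 of 10 detected, PAX2 at 6.80 ± 4.96 and FOXP2 at 4.51 ± 1.40 TPM, and LBX1 and PTF1A had 0 counts. Intermediate mesoderm and kidney genes, which LHX1 and LMX1B also mark, had 5 of 10 detected, led by PAX8, SALL1 at 22.5 ± 5.77 TPM and EYA1 at 18.8 ± 6.06 TPM, with WT1 at 0.02 ± 0.03 TPM. Of the motor neuron and pituitary list of LHX3 and LHX4 1 of 13 genes was detected, HESX1, with POU1F1 and SOX14 at 0 counts. The list for LHX9 had 2 of 8 detected, GBX2 at 61.8 ± 22.3 and TCF7L2 at 25.3 ± 7.11 TPM, while BARHL1 had 0 counts.

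The list of LIM cofactors, which also holds the competing LMO genes and RLIM, had 8 of 10 genes detected, and its median was 5.28 ± 0.18 log2(TPM + 1). LDB1, LDB2, SSBP2, SSBP3 and SSBP4, the genes of the complex itself, were all detected. LDB1 stood at 99.69, 97.25 and 109.04 TPM, and its relative LDB2 at 13.73, 19.17 and 21.79 TPM. The stabilising partners SSBP3, SSBP4 and SSBP2 reached 187 ± 20.0, 123 ± 5.86 and 75.0 ± 9.26 TPM. LMO4, a LIM-only protein that can hold LDB1 away from LIM homeodomain proteins, reached 113 ± 8.30 TPM, LMO3 13.3 ± 2.59 TPM, and the ubiquitin ligase gene RLIM, which targets LDB proteins, 17.1 ± 6.89 TPM. LMO1 stood at 1.11, 0.29 and 1.13 TPM. LMO2 had 2.52, 0.37 and 0.49 TPM and was the 1 of 9 genes tested in this list that the spread test called (edgeR, adjusted p = 0.0143), with replicate 1 at 2.42 log2 CPM above the others. The LDB1 level in TPM thus varied by 1.12-fold at most between libraries, while LHX8 varied by 3.65-fold.

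**Figure D4:**
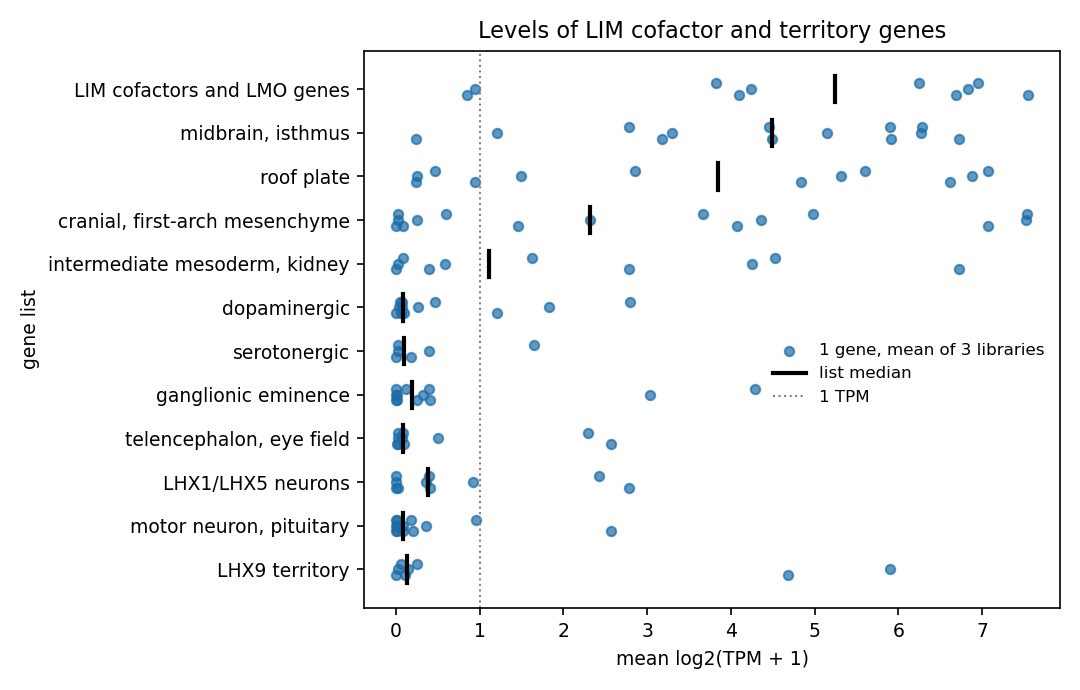
Mean log2(TPM + 1) over 3 libraries (horizontal axis) of the genes of 12 lists (vertical axis), with 1 point per gene, a bar at the median of these gene means (values in the text are medians within each library, then averaged) and a dotted line at 1 TPM. Genes of the cofactor and LMO list, the isthmus and the roof plate lie mostly to the right of the line, and the dopaminergic, serotonergic, ganglionic eminence, eye field, motor neuron and LHX9 lists mostly to its left.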

How the data were processed

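GRCh38 is the build in the submitters' processing notes, which also list RSEM 1.3.1, STAR 2.7.11a and Trim Galore 0.6.10 without saying what each did. No source used here gives the gene annotation, whether reads were counted by strand or whether they were paired. A library's RSEM table holds FPKM, TPM and expected count for each gene beside its length and effective length, per the file headers. The deposited expected counts are estimates without normalization. Exactly whole values, with no tolerance, made up 86.8% to 87.8% of a library's genes with zeros included, and 69.1% to 72.5% of its values above 0. For the deposited TPM the authors had divided by effective length and scaled each library to one total. The deposited FPKM served only as an alternative. Gene types came from GENCODE release 29, matched by identifier for 58261 genes (92.8%), and coordinates from RefSeq's table of GRCh38.p14.

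The members and the 19 lists set beside them (178 genes with the members, 4 of which were not matched) were chosen with earlier results of these data known. The rule for named genes was all members, ISL1, ISL2 and cofactors, and of each other list up to 4 genes of highest and 2 of lowest mean TPM. A few genes the rule names are left out of the text. Genes most like a member across samples were not sought, since 3 libraries of 1 group give no usable measure. Of the lists, neural crest had 8 of 8 genes detected and pluripotency 4 of 8.

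Differences within a library used log2(TPM + 1) with an exact sign-flip permutation test. For the spread between libraries, expected counts were rounded, filtered (filterByExpr) and scaled (TMM), and edgeR 4.0.16 under R 4.3.3 with limma 3.58.1 fitted a negative binomial model with an intercept alone. Its residual deviance at the trended dispersion was set against a chi-square distribution. The method was tested on simulated data. Other steps used scipy 1.17.1, pandas 2.3.3, numpy 2.4.6, matplotlib 3.10.9 and Python 3.11.15. Alternatives were a pseudocount of 0.1, FPKM, CPM, TPM minimums of 0.5 and 5, DESeq2-type (RLE) size factors, no filter, a common dispersion and leaving out each replicate.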

Additional observations from a re-analysis of the deposited data

How the results depend on the processing

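The 7 gene pair differences kept their sign under every alternative run, with LMX1B minus LMX1A between 3.33 (FPKM) and 5.39 (CPM without length scaling) and LHX8 minus LHX2 between 1.35 (FPKM) and 1.61 (CPM). None of them could pass a threshold with 3 libraries. The count of detected members was 4 at a TPM minimum of 0.5 and without any single replicate, 3 in FPKM, where LHX6 dropped out, and 2 at a TPM minimum of 5, where LHX8 and LMX1B were left. The number of genes called for spread, 271 of 17046, was 270 with RLE size factors, 300 with no filter and 332 with a common dispersion, and 95 to 117 without 1 replicate, where 2 libraries were left to compare. LMX1B was called without replicate 1 (adjusted p = 8.47e-05) and LHX2 under a common dispersion (0.0319, edgeR). LHX4, LHX6 and LMX1A were not called under any alternative. No paired analysis was possible because the libraries form a single group. Depth limits the statements on LHX1, LHX3, LHX5 and LHX9, which had 6 counts or fewer each, and the small LMX1A counts.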

Other observations

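Of 10 listed non-coding neighbours of the LIM genes 6 were matched, beside LHX1, LHX2, LHX5, LMX1A and LMX1B, and only LMX1B-DT was detected, on few counts. LMX1B-DT (chromosome 9, 126608113 to 126613799) is a non-coding gene whose span lies just upstream of LMX1B and overlaps the LMX1B window shown above. LMX1B-DT stood at 1.43, 2.46 and 1.95 TPM in replicates 1, 2 and 3, from 8, 12 and 7 counts. Replicate 2 was its high library, as it was for LMX1B, but on counts this small. The antisense genes of LMX1A, LMX1A-AS1 and LMX1A-AS2, had 0 counts in all 3 libraries, LHX1-DT had 0, 1 and 0, LHX5-AS1 had 1, 0 and 0, and LHX2-AS1 had 0, 0 and 3. LMX1A-AS1 and LMX1A-AS2 lie within LMX1A, and without knowledge of strand their reads and those of LMX1A cannot be told apart where transcripts overlap.

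RSEM's length of a gene is the mean over its transcripts weighted by their estimated share, so it moves when the estimated transcripts change. It was steady for LMX1B at 6300, 6298 and 6297 bases and for LHX8 at 2080, 2071 and 2066 bases. For LMX1A it was 2401, 3062 and 3350 bases on 13, 40 and 22 counts, and its TPM values carry that uncertainty as well as the counting error.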
